A study of Rattus norvegicus with 6 samples.

Results

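The intercalated disc is the end-to-end contact between heart muscle cells, and 10 of its genes are described here in whole rat hearts: the connexins Gja1, Gja5 and Gjc1, the desmosome genes Dsp, Dsg2, Dsc2, Jup and Pkp2, the adherens junction cadherin Cdh2 and the scaffold Tjp1. The genes were taken by name, with 1 row of the array per gene. A platform table named a row for 8 of the 10, out of 15037 named genes and 23188 tested rows, and each of the 8 had a single row. Dsp, which encodes desmoplakin, and Dsg2, which encodes desmoglein 2, had no row of that name, so 2 genes are without a value.

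RNA was measured on 6 Clariom S Rat microarrays, 1-colour Affymetrix arrays that give 1 log2 signal per transcript. The labels give 2 arrays each of normal hearts, of TAC hearts and of TAC-R hearts, in which the TAC was undone. The rats were male Sprague Dawleys, 10 weeks old. TAC, constriction of the transverse aorta, was made by tying a silk thread around the vessel over a 21-gauge blunt needle, which was then withdrawn. A loop of monofilament was left on the thread to mark where it could later be cut. The labels mention control rats that had the same operation without the ligature, but do not state whether the normal hearts came from them. The sources used here do not give how long TAC lasted or when hearts were taken after release. No label says that the arrays of a group came from separate animals, so the spread behind each p-value is one between arrays and may be purely technical. The extraction field names cultured fibroblasts, while all other fields name whole heart. Of 12 measured heart muscle markers, 12 were above background on all 6 arrays and 5 were at the upper limit of the scale on all of them.

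At the disc, neighbouring heart muscle cells are joined mechanically and electrically. Connexins form the channels of gap junctions, through which current passes from cell to cell. In desmosomes the cadherins desmocollin and desmoglein hold the cells together, and plakoglobin (Jup), plakophilin 2 (Pkp2) and desmoplakin tie them to desmin filaments inside the cell. In adherens junctions N-cadherin (Cdh2) is linked through catenins to actin. Inherited variants of the desmosome genes are a known cause of arrhythmogenic cardiomyopathy, and a changed amount or position of connexin 43 (Gja1) is a known feature of overloaded and failing hearts.

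None of the 8 measured genes passed the test in any of the 3 comparisons. The test was limma's moderated linear model on all rows, with a Benjamini-Hochberg adjusted p under 0.05. In TAC hearts against normal hearts 0 of 8 were called, with 0.254% of all tested rows called. In TAC-R against TAC hearts 0 of 8 were called, with a background of 0.431%, and in TAC-R against normal hearts 0 of 8, with a background of 0.0906%. Calls were this rare over all rows, so 0 of 8 is near the background. At an unadjusted p under 0.05 the counts were 1, 0 and 1 of 8, against 10.3%, 11% and 10.7% of all tested rows. The precision of single genes was limited by the number of arrays. At the spread of these genes, a call needed a difference of 1.37 to 1.73 log2 units between TAC and normal, 1.27 to 1.61 between TAC-R and TAC, and 1.57 to 1.98 between TAC-R and normal. The largest differences among the 8 were those of Gjc1 and Cdh2, at -0.77 and 0.77.

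**Figure D1:**
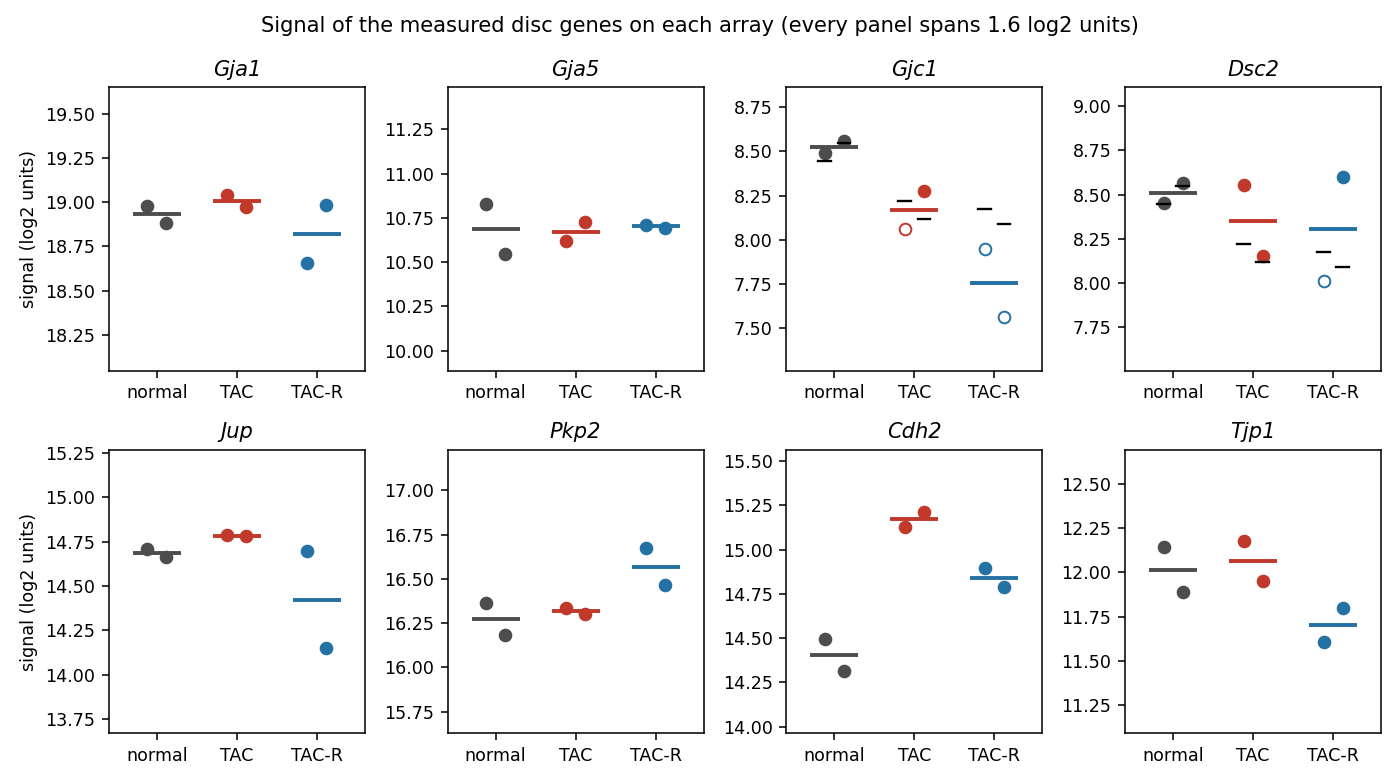
Log2 signal of the 8 measured disc genes on each of the 6 arrays, grouped as normal, TAC and TAC-R; every panel spans the same range, horizontal bars are group means, short black marks are the background of that array (95th percentile over its negative controls) where it falls in the panel, and open points lie below it. Cdh2 is highest on both TAC arrays, Gjc1 is lowest on both TAC-R arrays and below background there, and Gja5 stays between 10.54 and 10.83 on all arrays.

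Gja1 encodes connexin 43, the main gap junction protein of working heart muscle. Its log2 signal was 18.98 and 18.88 on the normal arrays, 19.04 and 18.98 on the TAC arrays, and 18.66 and 18.99 on the TAC-R arrays. All 3 groups overlapped, and TAC-R replicate 1 was the lowest array. The difference of TAC from normal was 0.08 ± 0.22 log2 units (± standard error of the model), with a 95% confidence interval from -0.42 to 0.58 and an adjusted p = 0.935 in limma. The difference of TAC-R from TAC was -0.19 (interval -0.68 to 0.31, adjusted p = 0.81), and that of TAC-R from normal was -0.11 (interval -0.61 to 0.39, adjusted p = 0.897). Its brightest array lay 0.89 log2 units below the upper limit of the scale, 19.93, which none of its values reached. Between TAC-R and TAC hearts the interval leaves room for a TAC-R signal lower by up to 0.68 log2 units, so equal levels are not shown.

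Gja5 encodes connexin 40, the gap junction protein of atrial muscle, of the fast conduction fibres and of arterial endothelium. It had 10.83 and 10.54 on the normal arrays, 10.62 and 10.72 on the TAC arrays, and 10.71 and 10.69 on the TAC-R arrays. The highest and the lowest value were both normal arrays, and the TAC-R values lay between the TAC values, so the groups overlapped in each comparison. Its differences were -0.01, 0.03 and 0.01 log2 units for TAC against normal, TAC-R against TAC and TAC-R against normal, each ± 0.21 (adjusted p = 0.991, 0.978 and 0.988 in limma). The 95% confidence intervals ran from -0.50 to 0.47, from -0.46 to 0.52 and from -0.47 to 0.50. Markers of the cells that carry connexin 40 were far less even over the same arrays. The summed signal of 6 measured atrial muscle markers lay at 10.80 to 11.18 log2 units on the normal arrays, 10.34 to 10.47 on the TAC arrays and 13.10 to 15.07 on the TAC-R arrays, with 2 of the 6 below background on all arrays. The TAC-R sum was carried by Myl7, the atrial myosin light chain, and Nppa, at means of 13.42 and 12.47. Myl7 was called higher in TAC-R against both other groups (adjusted p = 0.00315 against TAC and 0.0105 against normal, limma). Of the 6, only Nr2f2 did not have its highest mean in TAC-R, with 8.99, 9.46 and 8.65 in normal, TAC and TAC-R hearts. The summed signal of 7 arterial endothelium markers lay at 11.42 to 11.62, 10.85 to 11.004 and 10.70 to 10.88, with 5 of the 7 below background throughout. The part of these cells in the Gja5 values was not tested.

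Gjc1 encodes connexin 45, which is typical of the slow conducting cells of the nodes. It had 8.49 and 8.56 on the normal arrays, 8.06 and 8.28 on the TAC arrays, and 7.95 and 7.56 on the TAC-R arrays. No groups overlapped: both TAC arrays lay below both normal arrays, and both TAC-R arrays below all others. Background, taken as the 95th percentile of the negative control rows of the same array, was passed on both normal arrays, on TAC replicate 2 and on neither TAC-R array. Against normal the TAC arrays differed by -0.36 ± 0.23 log2 units (interval -0.88 to 0.16, adjusted p = 0.616 in limma). With the background percentile in place of each TAC-R value below it, the normal mean was 1.31-fold above that of TAC-R. This lower bound is a point estimate. The measured means were 8.53 ± 0.05 in normal and 7.76 ± 0.27 in TAC-R hearts (SD, n = 2 each). The interval of their difference ran from -1.29 to -0.25, so a smaller fold is not excluded. The difference was not called (adjusted p = 0.314 in limma). The normal values were barely above their own background of 8.45 and 8.55, and that of the TAC-R arrays was 8.17 and 8.09, so the bound comes mostly from the lower background of the TAC-R arrays. The measured difference of TAC-R from TAC was -0.41 (adjusted p = 0.568), with no fold given because the TAC mean of 8.17 did not pass the background of both TAC arrays.

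The summed signal of 7 measured conduction system markers was 10.94 to 10.95 log2 units on the normal arrays, 9.80 to 10.00 on the TAC arrays and 9.55 to 10.27 on the TAC-R arrays. Of the 7, Hcn4, the pacemaker channel gene, was above background on all arrays and 6 were below it on all arrays, so the sum follows Hcn4. Hcn4 differed from normal by -1.34 in TAC and by -1.37 in TAC-R hearts and was not called (adjusted p = 0.194 and 0.223 in limma). Other members had another order of groups: Cacna1g, a calcium channel gene, was called higher in TAC-R than in TAC hearts (adjusted p = 0.0451 in limma), at means of 6.07 and 4.77 that lie below background, so the size is not measured. Their part in the Gjc1 values was not tested.

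Cdh2, the N-cadherin gene, had the smallest adjusted p of the 8 in the comparison of TAC with normal hearts. It had 14.50 and 14.31 on the normal arrays, 15.13 and 15.21 on the TAC arrays, and 14.89 and 14.79 on the TAC-R arrays. The 3 groups did not overlap, with TAC highest, TAC-R between and normal lowest. Its TAC signal was 1.70-fold the normal signal, a difference of 0.77 ± 0.21 log2 units with a 95% confidence interval from 0.29 to 1.24, and this did not pass (adjusted p = 0.291, unadjusted p = 0.00559, limma). With the variance prior allowed to depend on signal level, the same difference had an adjusted p = 0.0107 and was called. When 1 of the 4 compared arrays was left out, with the lone array assumed to vary like the other groups, the adjusted p ran from 0.458 to 0.716. TAC-R differed from TAC by -0.33 (interval -0.81 to 0.15, adjusted p = 0.634) and from normal by 0.44 (interval -0.04 to 0.91, adjusted p = 0.507).

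Whole hearts hold several cell types, and fewer cells of a type and less RNA per cell cannot be told apart in these data. The summed signal of 12 heart muscle markers was 23.11 to 23.12 log2 units on the normal arrays, 23.06 to 23.07 on the TAC arrays and 23.10 on both TAC-R arrays, with 5 of them at the upper limit of the scale on all arrays. This sum is carried by rows at or near the limit and could hardly move. Below the limit, Ryr2, the calcium release channel gene, had means of 16.36, 15.66 and 16.15 in normal, TAC and TAC-R hearts. Ryr2, Tnnc1 and Mybpc3 were the 3 of the 12 that were lower on both TAC arrays than on both normal arrays. Over all tested rows, 4945 of 23188 were lower there without overlap. In each comparison 0 of the 12 were called, beside 0.254%, 0.431% and 0.0906% of all tested rows. The summed signal of 8 fibroblast markers, cells which can also make N-cadherin, was 17.01 to 17.35 on the normal, 17.45 to 17.54 on the TAC and 16.48 to 16.86 on the TAC-R arrays, with 1 of the 8 below background throughout. This sum was highest on the TAC arrays, as Cdh2 was, but lowest on the TAC-R arrays, where Cdh2 lay between the other groups. It follows Dcn, the brightest of the 8, which overlapped between TAC and normal arrays. The other 7 were higher on both TAC arrays than on both normal arrays. So were 5088 of 23188 tested rows, and 2001 of the 6207 rows with a mean above the negative controls' percentile. In TAC-R against TAC hearts 2 of the 8 were called lower, beside 0.431% of all tested rows called. The summed signal of 6 red cell markers was 19.58 to 19.66, 20.78 to 20.84 and 20.33 to 20.43, the same order of groups as Cdh2, with 1 of the 6 at the upper limit on both TAC arrays. The summed signal of 8 macrophage markers had this order too, at 10.32 to 10.45, 10.92 to 10.96 and 10.55 to 10.63. Of the 8, 5 were below background throughout, among them Adgre1 and Cd163, which had their highest means in TAC-R hearts (5.41 and 7.23). C1qa, above background on all arrays, had its lowest mean there, at 8.65. The remaining markers had the order of the sum. The part of these cells in the Cdh2 values was not tested.

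**Figure D2:**
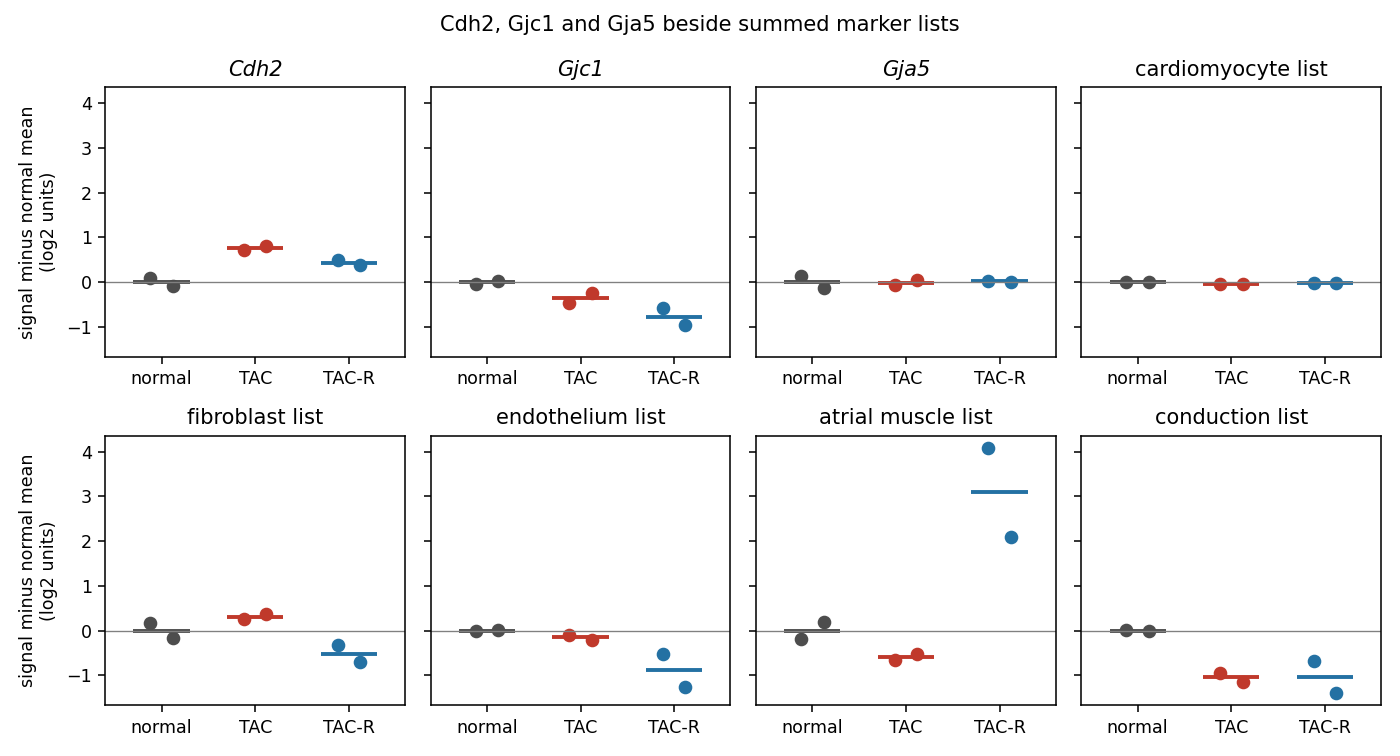
Signal of Cdh2, Gjc1 and Gja5, and log2 of the summed signal of 5 marker lists, on each array as a difference from the mean of the 2 normal arrays in log2 units; points are arrays and horizontal bars group means. Gja5 varies most within the normal group, the heart muscle list is dominated by rows at or near the upper limit of the scale, the atrial muscle list lies highest on both TAC-R arrays (summed signals of 13.10 and 15.07 log2 units), and the conduction list lies lower on the TAC and TAC-R arrays than on the normal arrays.

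The desmosome was represented by Jup, Pkp2 and Dsc2. Jup, which encodes plakoglobin of both desmosomes and adherens junctions, had 14.71 and 14.66 on the normal arrays, 14.79 and 14.78 on the TAC arrays, and 14.70 and 14.15 on the TAC-R arrays. The low value of TAC-R replicate 2 set the TAC-R mean, and replicate 1 of that group lay between the normal arrays. The differences of Jup were 0.10, -0.36 and -0.26 log2 units for TAC against normal, TAC-R against TAC and TAC-R against normal (adjusted p = 0.923, 0.651 and 0.739 in limma), with 95% confidence intervals from -0.45 to 0.65, from -0.91 to 0.19 and from -0.81 to 0.28. Without TAC-R replicate 2 the last of these was 0.01 and that of TAC-R against TAC was -0.09.

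Pkp2 encodes plakophilin 2, the armadillo protein of the cardiac desmosome plaque. It had 16.37 and 16.18 on the normal arrays, 16.33 and 16.30 on the TAC arrays, and 16.67 and 16.46 on the TAC-R arrays. Both TAC-R arrays lay above all others, and normal and TAC overlapped. TAC-R differed from TAC by 0.25 (interval -0.23 to 0.73) and from normal by 0.30 (interval -0.19 to 0.78), each ± 0.21 (adjusted p = 0.73 and 0.652 in limma). The difference of TAC from normal was 0.05 (interval -0.44 to 0.53, adjusted p = 0.964).

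Dsc2 encodes desmocollin 2, a desmosomal cadherin. It was dim, with 8.45 and 8.56 on the normal arrays, 8.55 and 8.15 on the TAC arrays, and 8.01 and 8.60 on the TAC-R arrays. The lowest and the highest value were both TAC-R arrays, and TAC-R replicate 1 was below background. Its differences were -0.16, -0.05 and -0.20 log2 units for TAC against normal, TAC-R against TAC and TAC-R against normal, each ± 0.26 (adjusted p = 0.877, 0.969 and 0.827 in limma). The intervals ran from -0.76 to 0.45, from -0.65 to 0.55 and from -0.80 to 0.40. The gap of 0.58 between the TAC-R arrays was the widest between replicates among the 8 genes and wider than any of these differences.

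Tjp1 encodes ZO-1, the scaffold that borders gap junction plaques and also serves tight junctions of vessels and epithelia. It had 12.14 and 11.89 on the normal arrays, 12.18 and 11.95 on the TAC arrays, and 11.61 and 11.80 on the TAC-R arrays. Both TAC-R arrays lay below all others, and normal and TAC overlapped. TAC-R differed from TAC by -0.36 (interval -0.87 to 0.15) and from normal by -0.31 (interval -0.82 to 0.19), each ± 0.22 (adjusted p = 0.626 and 0.647 in limma). TAC differed from normal by 0.05 (interval -0.46 to 0.55, adjusted p = 0.965). The summed signal of 10 endothelium markers was 15.96 to 15.97 log2 units on the normal arrays, 15.77 to 15.87 on the TAC arrays and 14.72 to 15.45 on the TAC-R arrays, with 1 of the 10 below background throughout. This sum follows Cdh5, at means of 15.66, 15.50 and 14.68 in normal, TAC and TAC-R hearts. Of the 10, 4 were higher and 5 lower on both TAC arrays than on both normal arrays. Against both TAC arrays, 1 was higher and 7 were lower on both TAC-R arrays. Against both normal arrays, 0 were higher and 6 lower on both TAC-R arrays. Among all tested rows 43.3%, 40.5% and 40.9% did not overlap in these 3 comparisons. The part of endothelial cells in the Tjp1 values was not tested.

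**Figure D3:**
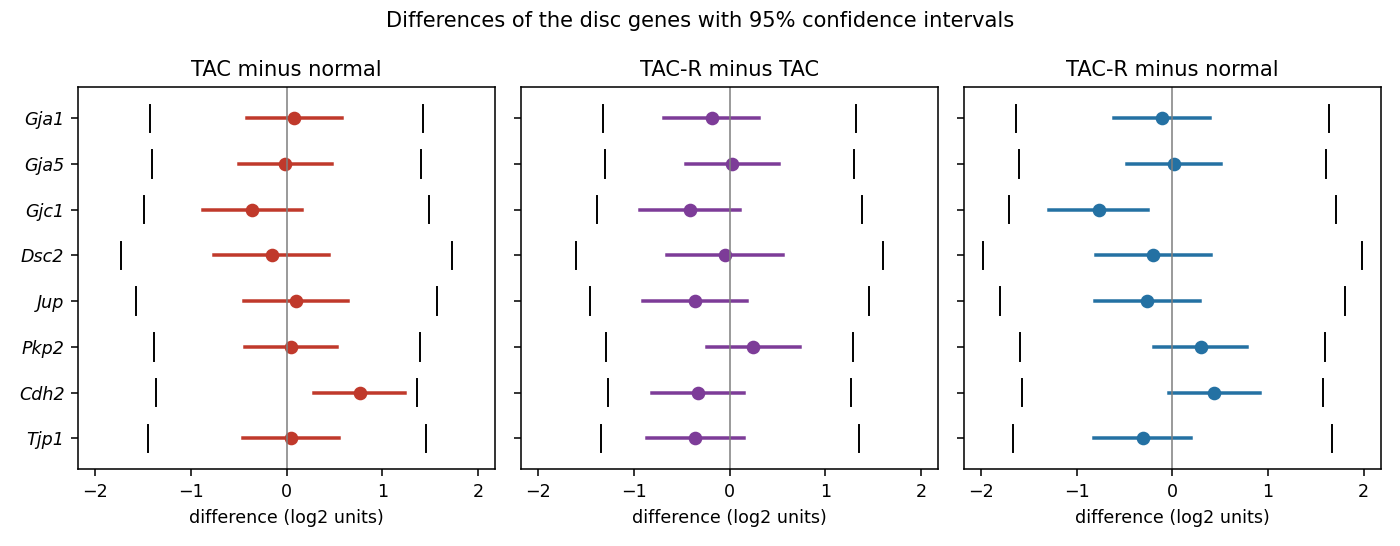
Log2 differences of the 8 genes in the 3 comparisons; points are the differences, coloured lines their 95% confidence intervals from the model, and black ticks the size at which a gene of that spread would have been called. No point reaches its ticks, and the intervals that leave out 0 are those of Cdh2 for TAC minus normal, from 0.29 to 1.24, and of Gjc1 for TAC-R minus normal, from -1.29 to -0.25.

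As a set the 8 genes had a median difference of 0.05 log2 units for TAC against normal, 5 above and 3 below 0, beside a median of 0.00 over all tested rows. For TAC-R against TAC the median was -0.26, with 2 above and 6 below 0, and for TAC-R against normal -0.16, with 3 above and 5 below 0, again beside medians of 0.00. Over the rows with a mean above the negative controls' percentile, the medians were 0.08, 0.01 and 0.09. Leaving out 1 array moved the first median between -0.06 and 0.13, and without TAC-R replicate 1 the last was 0.03. The comparisons share arrays and are not independent of each other. The arrays of 2 groups did not overlap for 3 of the 8 genes between TAC and normal, 5 of 8 between TAC-R and TAC, and 4 of 8 between TAC-R and normal. The same held for 43.3%, 40.5% and 40.9% of all tested rows, and for 49.8%, 48.4% and 46.2% of the 6207 rows with a mean above the negative controls' percentile, so the counts are near the background. In size the differences had medians of 0.09, 0.29 and 0.28, beside 0.23 in each comparison over all tested rows. Over the rows above the negative controls' percentile these medians were 0.20, 0.21 and 0.21. The pooled standard deviation between replicate arrays had a median of 0.15 over the 8 genes, 0.24 over all tested rows and 0.19 over those above the negative controls' percentile. That of Dsc2, at 0.29, was above all of these medians.

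The catenins, adaptor proteins and channel partners of the disc formed a wider list of 20 genes, of which 15 had a named row and 12 were above background on all arrays. In each comparison 0 of the 15 were called, beside 0.254%, 0.431% and 0.0906% of all tested rows. At an unadjusted p under 0.05 (limma) there were 4, 6 and 1, beside 10.3%, 11% and 10.7%. Without overlap, 2, 5 and 5 were higher and 5, 6 and 4 lower. Among all tested rows 43.3%, 40.5% and 40.9% did not overlap. The 15 had median differences of -0.01, -0.14 and -0.02 log2 units. In size the medians were 0.12, 0.35 and 0.25, beside 0.23 over all tested rows in each comparison. The largest difference was that of Cxadr, which encodes the coxsackievirus and adenovirus receptor, a cell adhesion protein of the disc. Cxadr had 13.14 and 13.07 on the normal arrays, 13.93 and 14.05 on the TAC arrays, and 12.73 and 12.83 on the TAC-R arrays, and no groups overlapped. Its difference was 0.88 ± 0.21 for TAC against normal (adjusted p = 0.207), -1.21 ± 0.21 for TAC-R against TAC (adjusted p = 0.054) and -0.33 ± 0.21 for TAC-R against normal (adjusted p = 0.607, limma). The middle difference missed the threshold narrowly: over 17 alternative settings its adjusted p ran from 0.000682 to 0.302 and passed in 6, none of them a fit with an array left out, which also has fewer residual degrees of freedom. Between TAC-R and normal hearts the largest difference above background was that of Dlg1, the scaffold SAP97, at 0.48 ± 0.21 (adjusted p = 0.468 in limma).

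Xirp2 and Nrap, actin-binding proteins of the disc and of growing myofibrils, and the crosslinker Flnc were singled out after their values were seen. Xirp2 had 15.75 and 15.77 on the normal arrays, 15.06 and 14.82 on the TAC arrays, and 15.74 and 15.76 on the TAC-R arrays, so that TAC alone was low. Nrap had 17.16 and 17.12 on the normal, 16.67 and 16.64 on the TAC, and 17.62 and 17.41 on the TAC-R arrays. Flnc had 11.64 and 11.57, 11.32 and 11.24, and 12.08 and 11.90. All 3 were lowest on both TAC arrays, where Cxadr and Cdh2 were highest. For TAC-R against TAC they differed by 0.81, 0.86 and 0.71 log2 units and were not called (adjusted p = 0.192, 0.17 and 0.246 in limma), though Xirp2 and Nrap were called in 2 of 17 alternative settings. For TAC against normal they differed by -0.83, -0.48 and -0.32 (adjusted p = 0.254, 0.476 and 0.622 in limma).

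Of the genes that link the members to the cytoskeleton, 4 more were singled out by role, with their values known. Their differences were smaller than those of Xirp2, Nrap and Flnc, both between TAC and normal and between TAC-R and TAC. Ctnnb1, beta-catenin, and Ctnna1, alpha-catenin, differed by 0.03 and -0.01 log2 units between TAC and normal and by -0.28 and 0.21 between TAC-R and TAC. Des, the muscle intermediate filament desmin, differed by -0.01 and 0.12, and Vcl, vinculin of the actin link, by 0.04 and -0.14. None of these 4 passed in either comparison (adjusted p from 0.696 to 0.997 in limma).

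**Figure D4:**
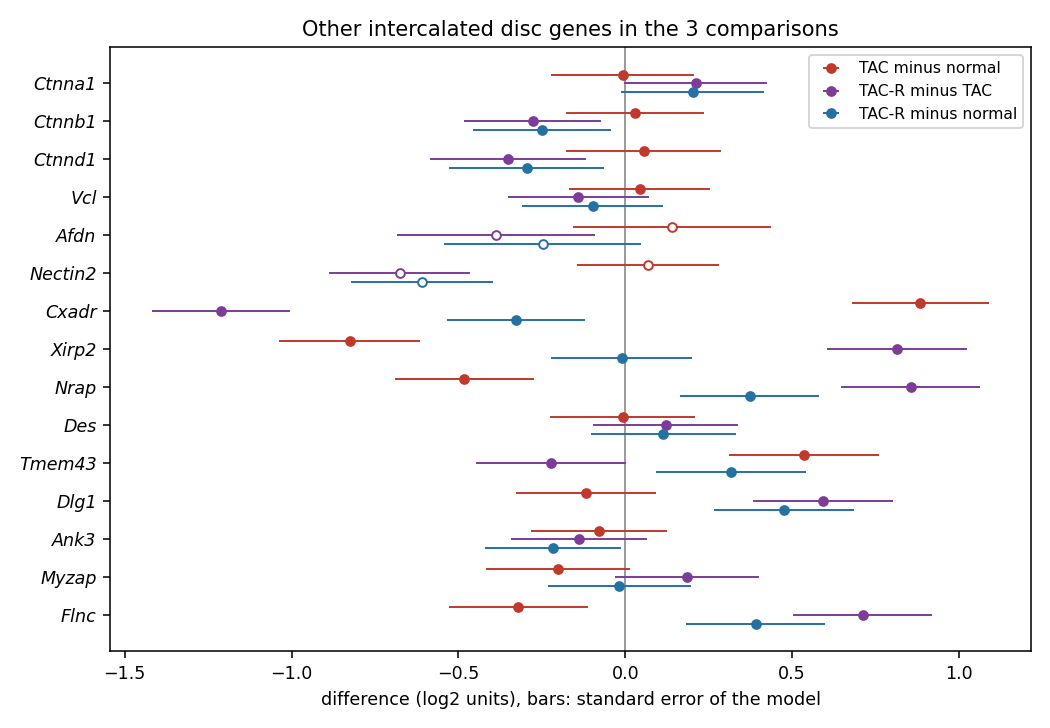
Log2 differences of the 15 measured disc partner genes in the 3 comparisons; points are differences, bars the standard error of the model, and open points genes below background on all arrays. Cxadr stands at 0.88 for TAC minus normal and -1.21 for TAC-R minus TAC, Xirp2 and Nrap lie on the opposite side of 0 from it in these comparisons, and Ctnna1, Ctnnb1 and Ctnnd1 lie between -0.35 and 0.21 throughout.

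The remaining lists of related genes held no called gene, where at most 0.431% of all tested rows were called. Of 20 other connexin and pannexin genes 13 had a named row, and Gja3, connexin 46, was above background on all arrays, while 12 were below it on all arrays. Gja3 differed by 0.08, -0.13 and -0.05 log2 units for TAC against normal, TAC-R against TAC and TAC-R against normal (adjusted p = 0.93, 0.876 and 0.961 in limma). Of 10 further desmosome genes, mostly of skin and other epithelia, 7 had a named row and 6 were below background throughout. The exception was Perp, a membrane protein of desmosomes, which differed by -0.04, -0.10 and -0.13 (adjusted p = 0.973, 0.915 and 0.87 in limma). Of 11 genes for the trafficking, phosphorylation and breakdown of connexins 9 had a named row, and 0 were called in any comparison. The largest differences among those above background were those of the kinase gene Prkce at -0.25 for TAC against normal, the ubiquitin ligase gene Nedd4 at 0.16 for TAC-R against TAC and the kinase gene Csnk1d at 0.31 for TAC-R against normal (adjusted p = 0.732, 0.826 and 0.629 in limma). Epithelial and mesothelial markers, which would mark other tissues rich in desmosomes, were below background on all arrays for 4 of 4 and 6 of 6 measured genes.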

How the data were processed

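The deposited values were log2 signals, 1 column per array, which the authors made in Expression Console by robust multi-array averaging over core exons, per the labels. The sources used here give neither software versions nor array batches. This averaging makes the arrays' distributions alike, so a shift of all transcripts cannot be seen. Array medians lay between 5.31 and 5.39. Of 24834 rows, 1646 control rows were left out. A platform table named 15049 of the 23188 tested rows. Background was the 95th percentile of 1153 negative control rows on each array, 8.09 to 8.55 log2 units.

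Differences were tested with limma 3.58.1 in R 4.3.3, with 1 mean per group over all 6 arrays, 3 residual degrees of freedom, no covariate and Benjamini-Hochberg adjustment over all tested rows. Intervals are 95% and not adjusted for the number of genes. For groups of 2 the smallest p of an exact permutation test, two-sided, is 0.333. The script was tested on simulated data. The members and lists were chosen with earlier results of these data known. Named genes were all members and, per related list and comparison, each called gene and the gene with the largest difference above background. Xirp2, Nrap, Flnc, Ctnna1, Ctnnb1, Des, Vcl and genes named from marker lists were added with their values known. Alternatives changed the moderation, the rows, the scaling, the block, the call rule and the arrays used.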

Additional observations from a re-analysis of the deposited data

How the results depend on the processing

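Over 17 alternatives, Cdh2 in TAC against normal with an intensity trend in the moderation was the 1 call among the 8 genes, which gave 1 of 8 in place of 0. In every other setting and comparison 0 of 8 were called. The median difference of the 8 genes ran from -0.06 to 0.13 (TAC against normal), from -0.27 to -0.14 (TAC-R against TAC) and from -0.16 to 0.0301 (TAC-R against normal) when 1 array was left out, the last value without TAC-R replicate 1. The other settings gave -0.01 to 0.07, -0.27 to -0.19 and -0.21 to -0.11. Without TAC-R replicate 1, Gja1 in TAC-R against normal was 0.06 in place of -0.11, and in TAC-R against TAC -0.02 in place of -0.19. Over the alternatives the sign of Gja5, Dsc2, Tjp1 and Pkp2 in TAC against normal was kept in 14, 16, 14 and 16 of 17, that of Gja5 and Dsc2 in 16 and 14 for TAC-R against TAC, and that of Gja1, Gja5, Jup and Dsc2 in 16, 15, 16 and 16 for TAC-R against normal. Cdh2 and Gjc1 kept theirs in every setting that gave a value. Gjc1 has no value where rows below the negative controls' percentile were left out. Averaging several rows per gene was not run, since each gene has 1.

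Calls over all rows numbered 59, 100 and 21 in the 3 comparisons (TAC against normal, TAC-R against TAC, TAC-R against normal). They numbered 170, 344 and 156 with an intensity trend, 74, 128 and 22 with robust moderation, 87, 187 and 68 without rows under the median, 70, 197 and 52 without rows under the negative controls' percentile, 39, 44 and 10 with control rows, 77, 141 and 39 without rows at the ceiling, 84, 144 and 54 after median centring, 56, 101 and 19 after quantile normalization, 35, 37 and 12 with only the 2 groups, 353, 456 and 331 by a 2-fold minimum together with p under 0.05 before adjustment, and 0 to 35, 4 to 37 and 0 to 12 with 1 array left out. A group left with 1 array adds no spread, so leaving out an array outside the comparison gives the same calls as fitting the 2 groups alone, which are the upper ends of these ranges. Among the 15 disc partner genes, the intensity trend called Cxadr, Xirp2 and Nrap in the first 2 comparisons. Leaving out rows under the negative controls' percentile called the same 3 in TAC-R against TAC and Cxadr in TAC against normal.

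The replicate numbers did not pair the arrays: the differences of replicate 1 from 2 correlated at 0.01, -0.01 and -0.01 between groups. With the replicate number as a block 0 of 8 genes were called, the medians of the 8 stayed at 0.05, -0.26 and -0.16, and 36, 47 and 11 rows were called. The cause of these shifts was not tested. The 2 arrays per group and, for Gjc1 and Dsc2, signals near background limit what could be seen.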
